A study of Mus musculus with 23 samples.

Results

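Brown adipose tissue (BAT) RNA was sequenced from male C57BL/6 mice, and 9 genes of the lysosomal arm of mTORC1 signaling were described: the Rag GTPase genes Rraga, Rragc and Rragd, the folliculin gene Flcn with its partners Fnip1 and Fnip2, and the MiT transcription factor genes Tfeb, Tfe3 and Mitf. The 9 genes were found by symbol among the 14651 genes of the deposited table, and they had been put together, chosen from their measured changes by cold and genotype in these libraries. Their differences by cold and by genotype are therefore given as values with standard errors and without p-values. Among the 23 mice, 11 were control mice (6 at RT, 5 at 4°C) and 12 were BAT-Mcu-KO mice (6 at each temperature). Control mice were Mcu[fl/fl], and BAT-Mcu-KO mice were Mcu[fl/fl];Ucp1-Cre, in which Cre is driven by the Ucp1 promoter. Both genotypes thus carried the floxed alleles of Mcu, the pore subunit of the mitochondrial calcium uniporter. Only BAT-Mcu-KO mice carried the Cre transgene, and no group had it without loss of Mcu, so the effects of the transgene and of Mcu loss cannot be told apart. Mice were 8 to 12 weeks old, and the cold groups were housed one per cage, without bedding, at 4°C for 6 h. By the labels, food was withheld at 4°C unless stated. It is not stated whether the mice at RT had food or were caged alone without bedding. Cold, loss of food and caging therefore cannot be told apart here.

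Rag GTPases act in pairs of RagA or RagB with RagC or RagD, which sit on the lysosome through the Ragulator complex and bring mTORC1 there when amino acids are plentiful. Folliculin with FNIP1 or FNIP2 is the GTPase-activating protein of RagC and RagD. The active Rag pair presents TFEB, TFE3 and MITF to mTORC1, which phosphorylates them and keeps them in the cytoplasm, and on starvation they enter the nucleus and switch on genes of lysosomes and autophagy through the motif CACGTG. Several of the genes, Flcn, Fnip1, Rragc and Rragd among them, are known targets of TFEB and TFE3, which makes the pathway a feedback loop. In BAT, folliculin is known as a brake on thermogenic genes that acts through TFE3.

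The normalized count of a gene is its number of reads divided by the size factor of the library, and libraries held between 7129271 and 21006347 reads. Mcu was at 70.8 to 136 normalized counts in the 11 control mice and at 15.2 to 42.4 in the 12 BAT-Mcu-KO mice, with no overlap. Ucp1, the uncoupling protein of brown adipocytes, was the check of the tissue and was at 50590 to 70028 in mice at RT and at 140888 to 198043 in mice at 4°C. The skeletal muscle list of 6 markers (Acta1, Ckm, Myh4 and others) stood apart in 5 mice, with summed normalized counts above 10000: 3 of the BAT-Mcu-KO group at RT (30373, 33988 and 42697) and 2 of the control group at 4°C (30100 and 26172), against 6.22 to 9976 in the 18 other mice. Where stated, differences, shares and correlations are also given without these 5 mice, and all other values include them. In whole tissue, fewer cells of a type and less RNA per cell cannot be told apart. Summed endothelial markers (6 of 6 in the table) were at 2831 to 4259 at RT and 4932 to 7753 at 4°C in control mice, and at 3085 to 3942 and 4632 to 6503 in BAT-Mcu-KO mice. Summed macrophage markers (7 of 7) were at 678 to 1014 and 787 to 1193 in control mice, and at 518 to 941 and 1034 to 1377 in BAT-Mcu-KO mice. Whether these lists have a part in the cold differences was not tested.

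RefSeq start sites on GRCm38.p6 gave 14 promoter windows for the 9 genes (250 bases before to 50 after each start), and 5 of them are shown up to the start because they carry the only matches to the searched motifs, or, for Rragd, because its level differed most by cold in control mice. Capitals mark the match. The motifs, searched on both strands, were CACGTG (the core E-box of MiT factors), TGACGTCA (the cAMP response element) and TGATGNAA (the core of ATF4 composite sites).
Flcn, chr11:59810040-59810289, minus strand: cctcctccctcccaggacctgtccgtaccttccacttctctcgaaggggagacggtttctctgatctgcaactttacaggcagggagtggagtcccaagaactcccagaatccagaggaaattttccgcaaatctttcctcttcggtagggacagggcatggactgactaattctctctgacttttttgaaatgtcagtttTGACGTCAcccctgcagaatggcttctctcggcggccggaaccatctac
Fnip1, chr11:54437929-54438178, plus strand: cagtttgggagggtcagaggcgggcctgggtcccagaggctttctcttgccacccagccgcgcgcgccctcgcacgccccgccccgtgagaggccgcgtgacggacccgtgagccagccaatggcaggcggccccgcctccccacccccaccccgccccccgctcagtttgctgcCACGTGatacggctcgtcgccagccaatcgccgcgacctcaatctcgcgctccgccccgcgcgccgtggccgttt
Rragc, chr4:123917183-123917432, plus strand: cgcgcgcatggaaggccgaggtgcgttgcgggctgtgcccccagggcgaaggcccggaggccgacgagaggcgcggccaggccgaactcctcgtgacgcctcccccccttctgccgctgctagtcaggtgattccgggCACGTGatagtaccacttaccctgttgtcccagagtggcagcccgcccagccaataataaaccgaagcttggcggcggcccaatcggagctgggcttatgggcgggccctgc
Rragd, chr4:32982748-32982997, plus strand: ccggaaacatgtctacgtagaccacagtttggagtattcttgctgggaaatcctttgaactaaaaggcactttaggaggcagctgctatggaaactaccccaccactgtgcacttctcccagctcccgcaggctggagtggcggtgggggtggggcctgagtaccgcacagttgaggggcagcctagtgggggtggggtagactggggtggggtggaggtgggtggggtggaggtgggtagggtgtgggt
Mitf, the third annotated start, chr6:97991533-97991782, plus strand: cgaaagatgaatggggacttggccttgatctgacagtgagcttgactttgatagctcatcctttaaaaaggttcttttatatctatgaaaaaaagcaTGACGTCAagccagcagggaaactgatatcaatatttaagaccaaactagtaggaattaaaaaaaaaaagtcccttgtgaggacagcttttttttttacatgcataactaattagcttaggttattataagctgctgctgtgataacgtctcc
CACGTG stood 112 bases before the Rragc start and 75 bases before the Fnip1 start, and it occurred in 2 of the 14 windows and in 7.15% of all 32851 mouse windows, or 9.67% of the 12786 windows of genes tested here. TGACGTCA stood 49 bases before the Flcn start and 153 bases before this start of Mitf, again in 2 of 14 windows, in 1.79% of all windows and in 2.96% of those of tested genes. TGATGNAA was in 0 of the 14 windows in 3.97% of all windows and in 2.27% of those of tested genes. Of the annotated starts of Mitf, only the third had the cAMP response element letters, and Rragd had none of the letters searched. Whether the letters have a part in the cold differences was not tested. A match describes letters in a window and says nothing of binding.

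Per kb of exon, Flcn was the most abundant of the 9 transcripts in all 4 groups and Rragd the least abundant in control mice at RT. Exon lengths merged all annotated exons of a gene, whether used in BAT or not. Levels and shares compared between genes depend on these lengths. In control mice at RT, Flcn was at 304 ± 32.7 normalized counts per kb (SD, n = 6). Rragc at 114 ± 23.03 and Rraga at 106 ± 9.97 followed, less than 1 SD apart, and Fnip1 was below them at 72.0 ± 10.7. Tfe3 was at 25.2 ± 4.41. Tfeb at 8.60 ± 0.97 and Mitf at 8.58 ± 1.85 were also less than 1 SD apart. Fnip2 was at 5.74 ± 1.81, below Mitf by more than either SD though their bars met, and Rragd came last at 1.88 ± 0.793. In control mice at 4°C Fnip1 (174 ± 15.2) stood above Rraga (146 ± 21.1) by more than either SD, with bars that met. Rragd (11.0 ± 5.17) stood beside Tfeb (12.6 ± 2.15) and above Fnip2 (7.85 ± 2.03), and Mitf (6.75 ± 2.97) was now the lowest, within 1 SD of Fnip2.

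**Figure D1:**
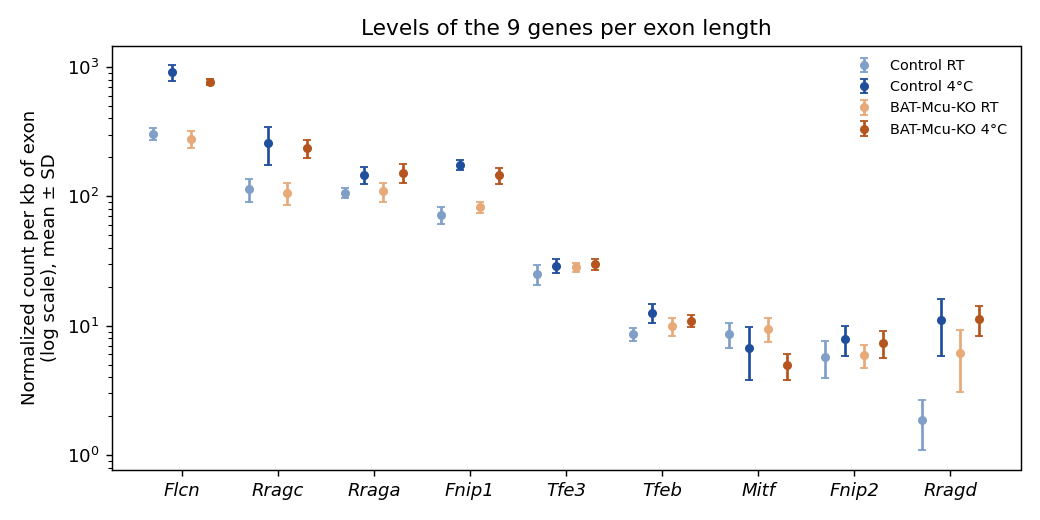
Normalized counts per kb of exon (log axis) of the 9 genes, ordered by their mean in control mice at RT, with points for group means and bars for the SD over 5 or 6 mice. Flcn is highest in each group, and Rragd moves from 1.88 in control mice at RT to 11.0 at 4°C.

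Rraga encodes RagA, the partner of RagC and RagD. Its normalized count was 152 to 195 in control mice at RT, with a median of 169. In control mice at 4°C it was 283, 197, 248, 209 and 245, and each of these was above each control mouse at RT, by a narrow margin at 197 against 195. BAT-Mcu-KO mice had 133 to 207 at RT (median 178) and 209 to 299 at 4°C (median 228), again without overlap. The difference by cold was 0.45 on the log2 scale (SE 0.13) in control mice and 0.47 (SE 0.13) in BAT-Mcu-KO mice, and the genotypes differed by 0.03 (SE 0.13) at RT and 0.05 (SE 0.13) at 4°C.

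Rragc encodes RagC, which TFEB needs to reach mTORC1. Control mice had 297 to 455 normalized counts at RT (median 387) and 558, 731, 747, 1271 and 1002 at 4°C. All 5 cold control mice were above all 6 at RT, and their values spread over a wider range than those of any other group. BAT-Mcu-KO mice had 270 to 435 at RT (median 354) and 637 to 1019 at 4°C (median 778), without overlap. The difference by cold was 1.15 (SE 0.18) in control mice and 1.16 (SE 0.17) in BAT-Mcu-KO mice. The gene 4930535I16Rik lies over exons of Rragc on the opposite strand. Since the reads do not keep their strand, reads where the exons overlap cannot be assigned by strand. How such reads were counted is not stated.

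Rragd encodes RagD, the other partner of RagA, known for its strong response to TFEB and TFE3 in other tissues. It was the lowest of the 9 genes in control mice at RT, where the values of 4.14 to 15.2 normalized counts (median 10.6) rest on 4 to 14 reads per library. Control mice at 4°C had 32.4, 77.4, 43.6, 93.3 and 38.5, so that the lowest cold mouse was above the highest mouse at RT. The difference by cold in control mice was 2.42 on the log2 scale (SE 0.34), place 158 from the top of the 14651 genes, and 1.70 with a pseudocount of 10 in place of 1.

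In BAT-Mcu-KO mice Rragd stood higher at RT than in control mice. The 6 BAT-Mcu-KO mice at RT had 20.7, 15.7, 32.9, 52.9, 19.5 and 49.4 normalized counts, each above the highest control mouse at RT (15.2). The margin was narrow, at 15.7 (13 reads) against 15.2 (14 reads). In the library with 15.7, 1 read equals 1.21 normalized counts. The difference by genotype at RT was 1.57 (SE 0.33), place 116 from the top of all genes. At 4°C the genotypes overlapped, with 39.5 to 81.5 in BAT-Mcu-KO mice (median 53.9) and a difference of 0.11 (SE 0.34). The cold difference in BAT-Mcu-KO mice was 0.95 (SE 0.33), with overlap between the temperatures, and the difference between the genotypes' cold differences was −1.47 (SE 0.48). As a share of Rragc and Rragd together, per kb of exon, Rragd made up 1.66% ± 0.664 (SD, n = 6) in control mice at RT and 4.12% ± 1.48 (n = 5) at 4°C, and 5.66% ± 3.12 (n = 6) and 4.55% ± 1.12 (n = 6) in BAT-Mcu-KO mice. The share in BAT-Mcu-KO mice at RT rests on the mice with high muscle sums: without them it was 3.10% ± 0.681 (n = 3), below and not above the share at 4°C, and that in cold control mice was 3.92% ± 0.524 (n = 3).

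The 3 BAT-Mcu-KO mice at RT with the most Rragd (32.9, 52.9 and 49.4) were the 3 with summed muscle markers above 10000. The other 3 mice of the group, with muscle sums of 1251, 2841 and 18.6, had 20.7, 15.7 and 19.5, a mean of 18.6 ± 2.63 (SD, n = 3). Each was still above the control mice at RT, by a narrow margin at 15.7. Among those control mice the muscle sums were 29.8 to 5744. Without the 5 mice with high muscle sums, the genotype difference at RT was 0.97 (SE 0.36), the cold difference in BAT-Mcu-KO mice 1.56 (SE 0.36), and the difference between the cold differences −0.82 (SE 0.51). The cold difference in control mice was then 2.38 (SE 0.36), with 3 cold control mice left. These include the mouse with a muscle sum of 9976, just under the limit of 10000, whose Rragd of 93.3 was the highest of its group. The closeness to the value with all mice thus depends on where the limit was set. Among cold control mice, those with sums of 22.3 and 6.22 had 32.4 and 43.6, and those with 30100, 9976 and 26172 had 77.4, 93.3 and 38.5. The part of muscle in the Rragd differences was not tested.

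**Figure D2:**
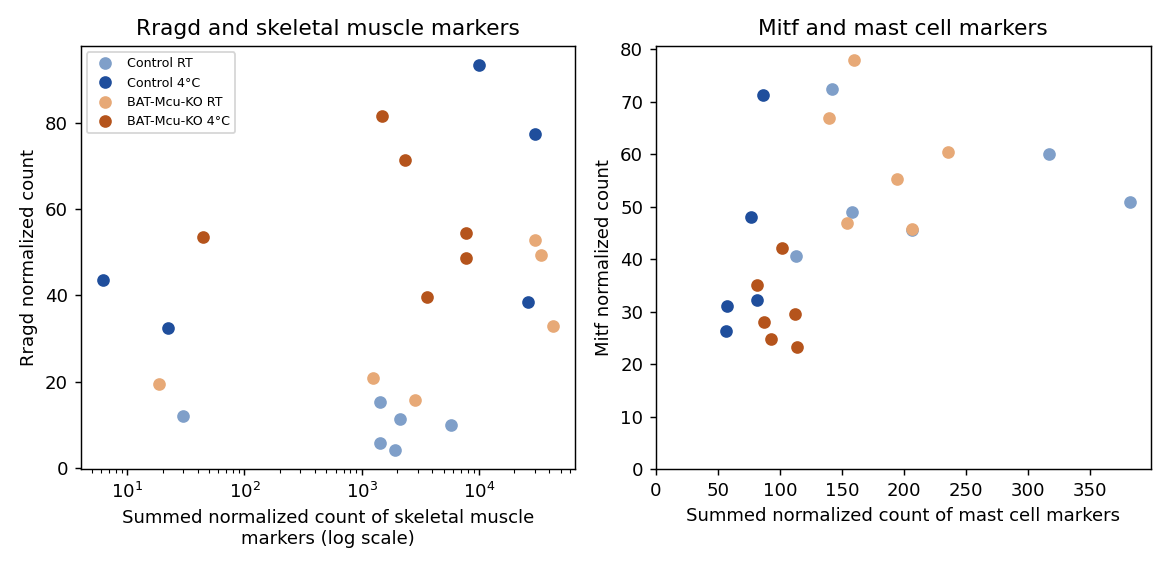
Left, Rragd normalized count of each mouse against the summed normalized count of 6 skeletal muscle markers (log axis); right, Mitf against the sum of the 5 mast cell markers in the table. The 3 BAT-Mcu-KO mice at RT with sums above 10000 have the highest Rragd of their group, 32.9 to 52.9, and cold mice lie at 56.6 to 113 on the mast cell axis.

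Flcn encodes folliculin. Control mice had 1117 to 1461 normalized counts at RT (median 1338) and 4857, 3478, 3836, 3716 and 3755 at 4°C, a fold of 2.98. The lowest cold mouse (3478) was far above the highest at RT (1461). BAT-Mcu-KO mice had 935 to 1438 at RT (median 1231) and 3025 to 3573 at 4°C (median 3312). The cold difference was 1.58 (SE 0.10) in control mice and 1.47 (SE 0.10) in BAT-Mcu-KO mice, places 467 and 468 from the top. By genotype Flcn differed by −0.13 (SE 0.10) at RT and −0.24 (SE 0.10) at 4°C, where the ranges overlapped.

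Fnip1 and Fnip2 encode the partners through which folliculin is held at the lysosome and, for FNIP1, is reached by AMPK. Fnip1 was at 410 to 597 normalized counts in control mice at RT (median 525) and at 1394, 1290, 1118, 1244 and 1163 at 4°C. BAT-Mcu-KO mice had 508 to 675 at RT (median 589) and 888 to 1261 at 4°C (median 1014). In both genotypes all cold mice were above all mice at RT. The cold difference of Fnip1 was 1.28 (SE 0.11) in control mice and 0.81 (SE 0.10) in BAT-Mcu-KO mice, and the difference between them was −0.47 (SE 0.15). BAT-Mcu-KO mice differed from control mice by 0.21 (SE 0.10) at RT and by −0.27 (SE 0.11) at 4°C, with overlapping ranges at each temperature.

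Fnip2 was much lower and overlapped between temperatures. It was at 23.9 to 68.3 normalized counts in control mice at RT (median 51.7) and at 60.7, 53.1, 54.8, 94.8 and 65.0 at 4°C. BAT-Mcu-KO mice had 33.8 to 60.2 (median 49.0) and 36.1 to 75.9 (median 61.9). The cold difference was 0.48 (SE 0.23) in control mice and 0.30 (SE 0.22) in BAT-Mcu-KO mice. Per kb of exon, Fnip1 made up 92.6% ± 2.00 (SD, n = 6) of both transcripts in control mice at RT and 95.7% ± 1.08 (n = 5) at 4°C. Gm17359 lies over exons of Fnip2 on the opposite strand, so that reads where these exons overlap also cannot be assigned by strand.

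**Figure D3:**
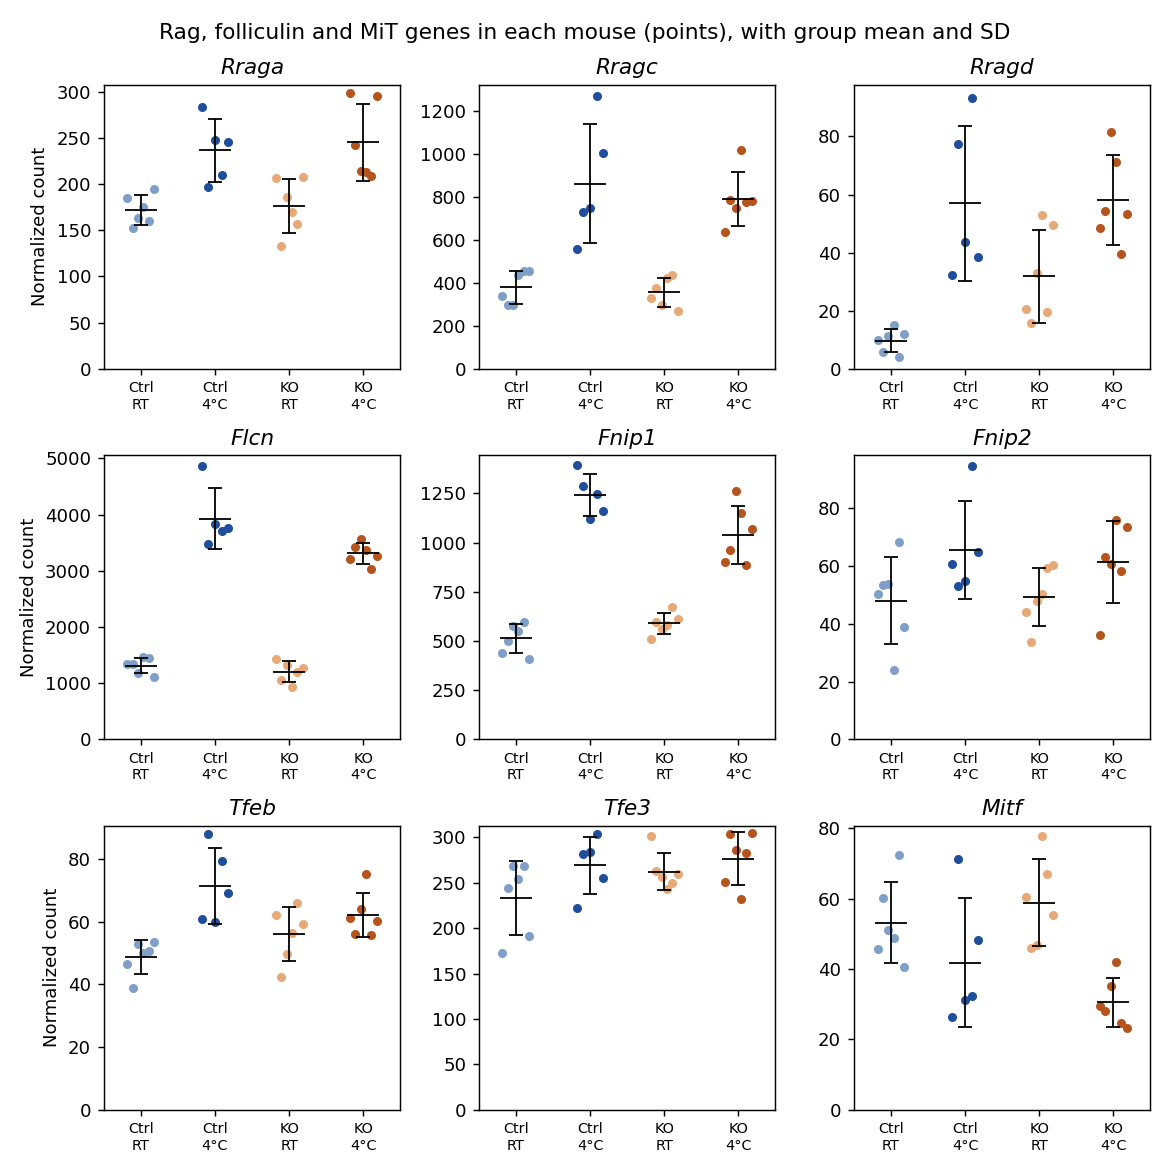
Normalized counts of the 9 genes in each mouse (points) by group, with the group mean and SD as black bars; each panel has its own axis from 0. Rragc, Flcn and Fnip1 are higher in each cold mouse than in each mouse at RT in both genotypes, Rragd does so in control mice, and Mitf is lower in cold BAT-Mcu-KO mice.

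Tfeb, the master regulator of lysosome genes, was at 38.8 to 53.6 normalized counts in control mice at RT (median 50.4) and at 60.7, 88.0, 59.7, 79.3 and 69.0 at 4°C. All cold control mice were above all control mice at RT. BAT-Mcu-KO mice had 42.2 to 66.0 at RT (median 57.8) and 55.8 to 75.004 at 4°C (median 60.6), with overlap. The cold difference was 0.53 (SE 0.15) in control mice and 0.15 (SE 0.14) in BAT-Mcu-KO mice, with −0.38 (SE 0.21) between them. The 3 cold control mice with the most Tfeb (88.0, 79.3 and 69.0) were those with muscle sums of 30100, 9976 and 26172. Without the 5 mice with high muscle sums the difference was 0.44 (SE 0.19).

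Tfe3, the factor through which loss of folliculin is known to act in fat, was the most abundant of the MiT transcripts, with 59.2% ± 3.25 (SD, n = 6) of Tfeb, Tfe3 and Mitf together per kb of exon in control mice at RT. It was at 173 to 268 normalized counts in control mice at RT (median 249) and at 223, 282, 284, 304 and 255 at 4°C. BAT-Mcu-KO mice had 243 to 301 at RT (median 258) and 232 to 305 at 4°C (median 284). All 4 groups overlapped, and the cold difference was 0.22 (SE 0.12) in control mice and 0.07 (SE 0.11) in BAT-Mcu-KO mice.

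Mitf, the MiT factor best known from melanocytes and mast cells, was the only one of the 9 genes with lower means in the cold. It was at 40.7 to 72.5 normalized counts in control mice at RT (median 49.96) and at 26.3, 71.3, 31.1, 32.3 and 48.1 at 4°C. In cold control mice, 3 of 5 were below the lowest mouse at RT, and the 2 above it (71.3 and 48.1) were those with muscle sums of 30100 and 26172. BAT-Mcu-KO mice had 45.8 to 77.9 at RT (median 57.8) and 23.4 to 42.1 at 4°C (median 28.8), without overlap. The cold difference was −0.41 (SE 0.23) in control mice and −0.93 (SE 0.22) in BAT-Mcu-KO mice, and without the 5 mice with high muscle sums it was −0.79 (SE 0.23) and −0.91 (SE 0.23). Mitf made up 20.2% ± 2.68 (n = 6) of the MiT transcripts in control mice at RT and 13.6% ± 4.37 (n = 5) at 4°C, and 19.9% ± 3.39 (n = 6) and 10.8% ± 2.53 (n = 6) in BAT-Mcu-KO mice (SD). Without the 5 mice the share was 10.6% ± 0.495 (n = 3) in cold control mice, and at RT in BAT-Mcu-KO mice it was 19.1% ± 2.46 (n = 3).

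Mast cell markers were also lower in the cold mice. The summed normalized counts of the 5 of 6 mast cell markers in the table were 113 to 382 in control mice at RT and 56.6 to 86.5 at 4°C, and 139 to 236 and 81.5 to 113 in BAT-Mcu-KO mice, and their part in the Mitf difference was not tested. Summed Schwann cell markers (5 of 5) were 928 to 1640 and 650 to 1002 in control mice, and 1115 to 1508 and 827 to 1222 in BAT-Mcu-KO mice, and their part was not tested either. Of the melanocyte list, 1 of 5 markers (Pmel) was measured, at 1.52 to 15.9, and the defining markers Dct, Tyr, Tyrp1 and Mlana were not analysed here. The gene has several start sites, and gene counts do not say which was used.

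The share of all genes that the same fit called sets a background for the 9 genes. With limma and Benjamini-Hochberg adjustment over all genes at 0.05, cold in control mice called 22.3% of all genes higher and 23.7% lower, and of the 9 genes 6 higher (Rraga, Rragc, Rragd, Flcn, Fnip1 and Tfeb) and 0 lower. Cold in BAT-Mcu-KO mice called 21.4% higher and 21.9% lower, and of the 9 genes 5 higher (Rraga, Rragc, Rragd, Flcn and Fnip1) and Mitf lower. Genotype called 0.0478% of genes at RT and 0.0751% at 4°C, the interaction 0%, and 0 of the 9 genes in each. For the interaction 878 of all genes had an unadjusted p under 0.05 with limma, while edgeR called 0 and DESeq2 28. Groups that did not overlap were also counted. In control mice 13.0% of all genes were higher and 12.3% lower in each cold mouse than in each mouse at RT, against 6 and 0 of the 9 genes, and in BAT-Mcu-KO mice 12.4% and 11.9%, against 4 and 1. The genotypes did not overlap for 0.218% of genes at RT and 0.683% at 4°C, and for 1 (Rragd, by a narrow margin) and 0 of the 9 genes. Because the genes were put together with these differences known, nothing is read from their counts. The call of Rragd for genotype at RT depended on the tool: limma and edgeR did not make it, and DESeq2 did.

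**Figure D4:**
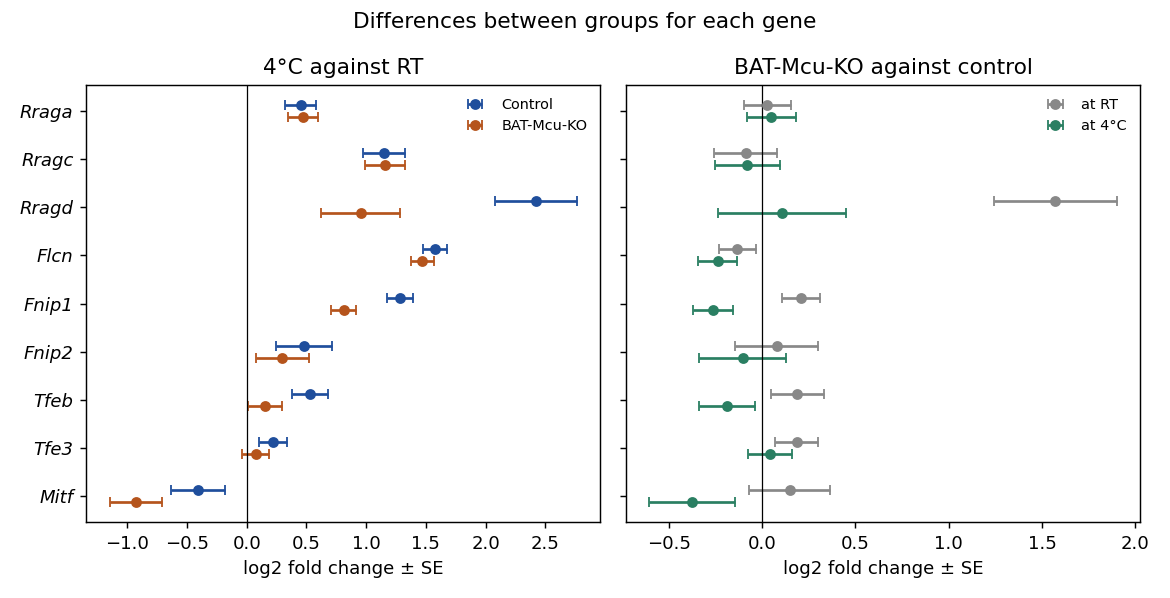
Log2 fold changes with standard errors from the limma fit for the 9 genes, by cold in each genotype (left) and by genotype at each temperature (right). Rraga, Rragc and Flcn lie at like values for cold in both genotypes, while Rragd lies at 2.42 for controls against 0.95 for BAT-Mcu-KO mice and at 1.57 for genotype at RT.

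Rragb, which encodes RagB, the paralog of RagA, was low, at 0 to 22.4 normalized counts, with 0 to 25 reads per library. Its cold difference in control mice was 1.10 (SE 0.51, limma adjusted p = 0.0795) and in BAT-Mcu-KO mice 0.66 (SE 0.48, limma adjusted p = 0.289). Tfec was not analysed here.

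The other genes of the pathway moved in both directions in the cold. Of 106 genes in 12 lists, 103 were in the table. In control mice 45 were called higher and 22 lower with limma, with a median difference of 0.18 beside −0.02 over all genes. In BAT-Mcu-KO mice 47 were called higher and 25 lower, with a median of 0.17 beside −0.02. Of the 103 genes, 42 were called higher and 19 lower in both genotypes. Over all genes 22.3% were called higher and 23.7% lower in control mice, and 21.4% and 21.9% in BAT-Mcu-KO mice. The lists were chosen with earlier results of these data known, so their counts are a description and nothing is read from them. By genotype and for the interaction limma called 0 of 103 genes, edgeR and DESeq2 also called 0, and 6 genes at RT, 12 at 4°C and 6 for the interaction had an unadjusted p under 0.05.

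Genes of the complexes that act on the Rag GTPases were called in both directions. Among the 5 Ragulator genes, 1 was called higher in the cold in control mice and 3 lower, with a median of −0.28, and in BAT-Mcu-KO mice 2 were called higher and 2 lower, with a median of 0.07. Lamtor3 rose by 1.11 (SE 0.13) in control mice and by 1.27 (SE 0.13) in BAT-Mcu-KO mice, whereas Lamtor2 fell by 0.54 (SE 0.12) and by 0.34 (SE 0.11). GATOR1, the GTPase-activating protein of RagA, and its anchor KICSTOR had 2 of 6 genes called higher and 2 lower in control mice and 3 and 2 in BAT-Mcu-KO mice, with Itfg2 in control mice at 0.65 (SE 0.17), Kptn at −0.68 (SE 0.15) and Nprl2 at −0.33 (SE 0.11). GATOR2, which opposes GATOR1, had 2 of 5 called higher and 0 lower in control mice, among them Mios by 0.63 (SE 0.16), and 1 and 0 in BAT-Mcu-KO mice. Of the 7 amino acid sensors 2 were called higher and 3 lower in each genotype. The leucine sensor Sesn2 rose by 1.48 (SE 0.19) in control mice and by 1.82 (SE 0.18) in BAT-Mcu-KO mice. In control mice its paralog Sesn1 fell by 0.74 (SE 0.17) and the CASTOR genes Gatsl2 and Gatsl3 by 1.21 (SE 0.27) and 0.58 (SE 0.19).

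Within mTORC1 and its TSC-RHEB switch, 5 of 10 genes were called higher and 2 lower in the cold in control mice, and 4 and 3 in BAT-Mcu-KO mice. In control mice Rheb, the direct activator of mTORC1, rose by 0.64 (SE 0.10), Mtor by 0.60 (SE 0.11) and Tsc1 by 0.63 (SE 0.12), and the mTOR inhibitor gene Deptor fell by 0.69 (SE 0.17). Of 7 AMPK subunits 2 were called higher and 2 lower in control mice, with a median of −0.05, and 1 higher and 4 lower in BAT-Mcu-KO mice, with a median of −0.47. These AMPK values include the 5 mice with high muscle sums, which were control mice at 4°C and BAT-Mcu-KO mice at RT. The part of those mice in the difference between the genotypes was not tested. In control mice Prkaa1 was at 0.55 (SE 0.11) and Prkag2 at −0.91 (SE 0.14). Of the calcineurin genes and the lysosomal calcium channel gene Mcoln1 (TRPML1), which act on TFEB from the phosphatase side, 2 of 5 were called higher and 1 lower in each genotype, with Mcoln1 in control mice at 0.94 (SE 0.24) and Ppp3ca at −0.34 (SE 0.08).

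Many lysosomal genes are known targets of the MiT factors. The vacuolar ATPase, the proton pump of the lysosome, had 12 of 18 genes called higher and 0 lower in control mice, with a median of 0.58, and 13 higher and 2 lower in BAT-Mcu-KO mice, with a median of 0.65. Atp6v1h rose by 1.40 (SE 0.10) and Atp6v1e1 by 1.09 (SE 0.08) in control mice. The lysosomal membrane and lipid export list had 5 of 9 called higher and 2 lower in each genotype. Its risers included Scarb2 (1.18, SE 0.07), Lamp2 (1.13, SE 0.09) and the amino acid exporter Slc36a1 (1.87, SE 0.20), and both cholesterol export genes Npc1 (−0.80, SE 0.14) and Npc2 (−0.52, SE 0.11) fell. The hydrolases had 8 of 23 called higher and 6 lower in control mice, with a median of −0.03, and 10 higher and 5 lower in BAT-Mcu-KO mice, with a median of 0.16. In control mice Gla rose by 1.78 (SE 0.23) and Sgsh fell by 1.4985 (SE 0.23), and Lipa, the acid lipase of lysosomal lipid breakdown, fell by 0.73 (SE 0.13). Among 7 autophagy genes and other genes described as TFEB targets, 4 were called higher and 1 lower in each genotype. In control mice Sqstm1 was at 0.94 (SE 0.12) and Wipi1 at −0.51 (SE 0.14). The genes called higher include Gpnmb (1.84, SE 0.46, in control mice), whose values overlapped between the temperatures.

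**Figure D5:**
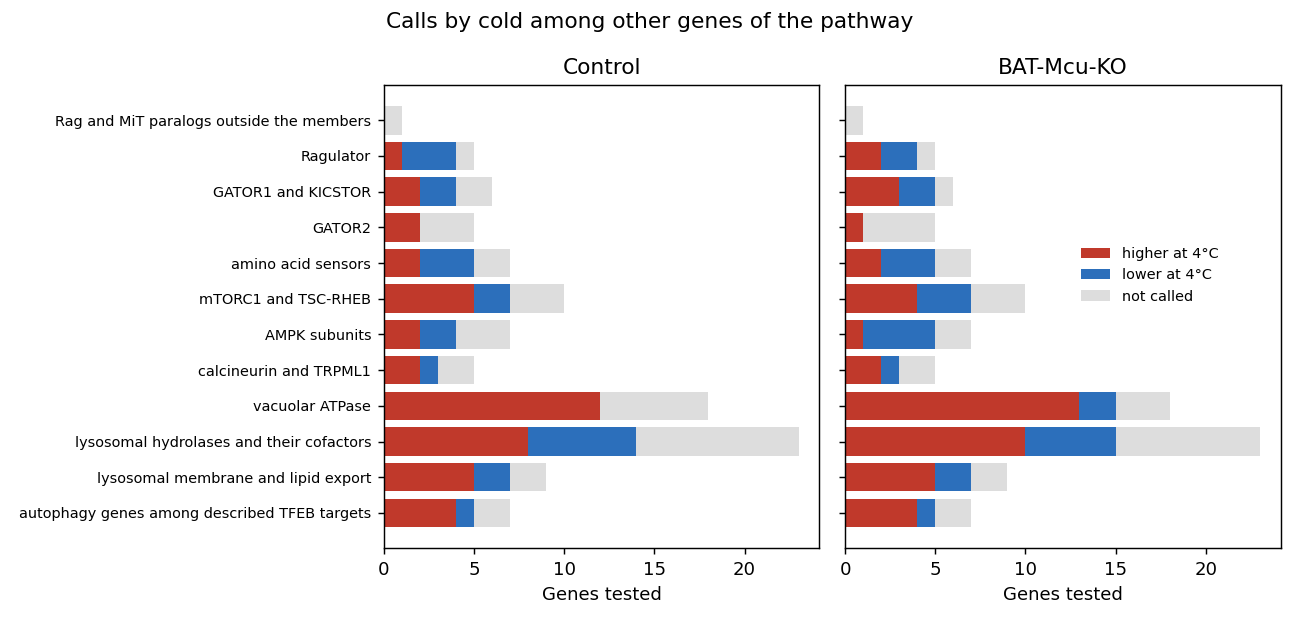
Number of genes tested in each of the 12 pathway lists, split into genes called higher at 4°C (red), lower (blue) and not called (grey) by limma, in control (left) and BAT-Mcu-KO mice (right). The vacuolar ATPase list has 12 of 18 genes higher in control mice, and the hydrolase list has 8 higher and 6 lower of 23.

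The genes with the pattern most like Rragd, with the widest cold difference of the 9 in control mice, were found by Pearson correlation of log2 values over all 23 mice, which largely reflects the 4 group means. They were Rnf115 (r = 0.900), Fxr1 (0.868), Aen (0.845), Hcfc2 (0.837) and Bdh1 (0.830). After group means were taken off, the 5 genes were others, led by Lrig3 (0.831) and Zdhhc13 (0.810). For Mitf, the gene with the lowest cold difference, they were Fam110a (0.840), Ncor1 (0.801), Purg (0.799), Mmp28 (0.795) and Mfsd7b (0.795), and Fam110a remained first after group means were taken off (0.777). Between the 9 genes themselves the correlations after group means were weak for most pairs, with the highest for Mitf and Tfeb (0.548) and for Tfeb and Rragd (0.498). In the 18 mice with low muscle sums these were 0.439 and 0.580, the 5 genes most like Rragd over all mice were at 0.869 to 0.908, the 5 most like Mitf at 0.761 to 0.895, Lrig3 was at 0.806 and Zdhhc13 at 0.783 after group means for Rragd, and Fam110a at 0.636 for Mitf. All these mice share 1 normalization, and the values are a description over 23 libraries.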

How the data were processed

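BAT RNA of 23 mice was sequenced by the Smart-seq2 method, which does not keep strand. The authors aligned reads to mm10 with STAR (version 2.4.0j) and counted them with HTSeq. The deposited values are a signal, namely HTSeq gene counts that the authors scaled by the size factor of DESeq2 for each library. A second deposited table of the authors' own comparisons, with fold changes and p-values, was not used. Whole reads were recovered for 100.0% of values (tolerance 0.02 of a read). They gave the depth and the read numbers printed, and among the tests they served only the edgeR and DESeq2 alternatives. Every gene had 8 or more reads in 6 or more samples. Per-sample columns not used numbered 0. Groups and replicate numbers came from the sample labels, and numbered samples were taken as separate mice.

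Values were tested as log2(normalized count + 1) with limma (version 3.58.1, R version 4.3.3), with a mean for each of 4 groups, a variance trend, and Benjamini-Hochberg adjustment over 14651 genes at 0.05. Fold changes on this scale understate those of low genes. edgeR (version 4.0.16) and DESeq2 (version 1.42.0), other pseudocounts, filters and scalings, a replicate block and each sample left out were alternatives. The analysis without mice with muscle sums above 10000 was chosen after seeing the data. The 9 genes and the pathway and marker lists were chosen with earlier results of these data known. All 9 genes were named, and of each list at most 3 called genes per direction with the smallest p in control mice, called alike in both genotypes. The 19 symbols turned into dates were tested and not named. Exon lengths came from the merged exons of GENCODE M21 (9261 bases for Tfe3), while the authors counted with another GENCODE release. Promoter windows came from RefSeq (GRCm38.p6), with all 9 genes matched. Scripts were tested on simulated data. Read numbers cover counting error only. Python (version 3.11.15) with pandas (version 2.3.3) handled the tables.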

Additional observations from a re-analysis of the deposited data

Results flagged for a closer look

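In 36 combinations of the 9 genes with the 4 groups, 3 mice stood far from the rest of their group by Dixon's ratio of gap to range at 95%, where chance gives about 1 in 20. Control mouse 1 at 4°C had a Flcn normalized count of 4857 (gap over range 0.741), above the other cold control mice. Control mouse 4 at 4°C had 94.8 for Fnip2 (gap over range 0.716). BAT-Mcu-KO mouse 1 at RT had 301 for Tfe3 (gap over range 0.654).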

How the results depend on the processing

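The counts of genes called by cold stayed within 1.5 times of the main count in all alternatives. So did the 67 and 72 pathway genes called by cold in control and BAT-Mcu-KO mice, though in BAT-Mcu-KO mice only just. Without the 5 mice with high muscle sums, 60 and 48 pathway genes were called, and 48 is at the limit of 1.5 times. Over all genes the counts were then 5647 and 4708. Over all genes, 6735 were called by cold in control mice and 6349 in BAT-Mcu-KO mice, against 6780 and 6501 with edgeR and 6875 and 6618 with DESeq2. With each library scaled to its 75th percentile the median cold difference of all genes in control mice was −0.13 in place of −0.02, and 2644 genes were called higher and 4281 lower in place of 3269 and 3466, while the same 9 genes kept their direction and their calls by cold. Counts by genotype were small and moved. At 4°C they were 11 in the main analysis, 6 with edgeR, 23 with DESeq2, 2 without the 5 mice with high muscle sums and 3 to 16 with 1 mouse left out. At RT they were 7, against 20 with DESeq2 and 5 to 8 with 1 mouse left out. For the interaction they were 0, against 28 with DESeq2 and 0 to 1 with 1 mouse left out. The causes were not tested. The replicate block called 7 genes by genotype at 4°C and added a call of Rragd by genotype at RT. Mice with the same number showed little shared deviation (mean correlation −0.137 to 0.121 between pairs of groups), so the numbers were not taken as pairs. Between cold control and cold BAT-Mcu-KO mice, the 5 same-numbered pairs were all positive, at 0.042 to 0.218.

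Of the 9 genes, Rragd lost its call by cold in BAT-Mcu-KO mice without BAT-Mcu-KO mouse 3 at 4°C or mouse 2 at RT. Mitf gained one by cold in control mice without control mouse 2 at 4°C, and Fnip2 without control mouse 5 at RT. Without the 5 mice with high muscle sums, Tfeb lost its call by cold in control mice and Mitf gained one. The filter on a mean of 50 or more left out Rragd and Mitf. Rragd in control mice at RT rests on 4 to 14 reads per library, and this depth limits its fold.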
